A study of Homo sapiens with 44 samples.

Results

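The 10 genes described here encode WNT ligands, antagonists, receptors and the core of the intracellular WNT response: WNT5A, WNT5B, WNT7B, DKK1, DKK3, SFRP1, FZD7, LRP6, AXIN2 and CTNNB1. They were taken by gene symbol, and all 10 were found in both deposited expression tables, among 58735 Ensembl genes in the one and 27315 gene symbols in the other. The study asked how the histone methyltransferase EZH2 and the transcription factor NF-kB act on gene expression in human cell lines of triple-negative breast cancer, a form without oestrogen receptor, progesterone receptor or HER2. RNA sequencing was available for 14 libraries in 7 groups of 2 biological replicates, each from an established cell line. Cells were transfected with small interfering RNA (siRNA) at 20 nM and harvested at 48 h. In the first experiment MDA-MB-231 cells received siRelA, siRelB or a control siRNA. In the second, MDA-MB-231 cells and SUM149 cells each received siEZH2 or a control siRNA. RelA and RelB are NF-kB subunits, and EZH2 is the catalytic subunit of Polycomb repressive complex 2. The other 30 samples of the series are chromatin immunoprecipitation libraries and were not analysed here.

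WNT proteins are secreted lipid-modified ligands that bind Frizzled receptors at the cell surface. In the canonical branch a WNT joins a Frizzled to the co-receptor LRP5 or LRP6, the complex that destroys beta-catenin is inactivated, and beta-catenin enters the nucleus and binds TCF/LEF factors. WNT5A and WNT5B act mostly through beta-catenin-independent branches. Secreted antagonists work outside the cell: DKK1 binds LRP5 and LRP6, and SFRP1 binds WNTs. In triple-negative breast cancer both branches are known for roles in invasion, metastasis and stem-like growth.

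The targeted genes were lower in the libraries labelled with their siRNA. RELA had 265 and 275 counts under siRelA and 3562 and 3391 in controls, and RELB had 90 and 107 counts under siRelB and 923 and 916 in controls. RELB was also lower where another gene was targeted, with 672 counts in the 2 siRelA libraries together and 1839 in the controls. Under siEZH2 RELB was 3.13-fold lower than in controls in MDA-MB-231 and 1.73-fold lower in SUM149. EZH2 was 9.08-fold lower under siEZH2 in MDA-MB-231 and 5.54-fold lower in SUM149. The counts of the first experiment summed to 18.6 to 24.4 M per library. For the second experiment the deposited values are variance-stabilised, and from them normalised counts and about 17.4 to 38.1 M reads per library could be recovered. The first SUM149 control library was the shallowest. Markers did not bear out the SUM149 label in full. SUM149 is known as a basal line that expresses E-cadherin, yet its control libraries held 102 to 116 normalised counts of CDH1 (E-cadherin) and 0 to 1.64 of the basal keratin KRT14, beside 1015 to 1027 of KRT5, 1460 to 1594 of EPCAM and 62193 to 64843 of the mesenchymal filament gene VIM. These libraries are called SUM149 below by their label alone. MDA-MB-231 controls of the first experiment held 986 to 1159 CPM (counts per M library reads, scaled by TMM) of VIM. They held 0 to 0.309 CPM of CDH1 and no read of KRT5 or KRT14. Of the other markers listed as high in this line, ZEB1 had 79.2 to 91.3 CPM, but CDH2 had 0.75 to 0.905 and SPARC 1.16 to 1.94. EPCAM, listed as low, had 19.0 to 21.9 CPM. In the second experiment MDA-MB-231 controls had 1297 to 1410 normalised counts of EPCAM. CDH2 had 120 to 128 there and 5064 to 5311 in SUM149 controls. Neither line had more than 3.36 normalised counts of the oestrogen receptor gene ESR1.

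Promoter sequences are shown for DKK1, the one member called in all 4 comparisons of a knockdown with its control, and for WNT5A and WNT5B, the paralogous ligands called under siEZH2 in SUM149. RefSeq windows (GRCh38.p14) of the 250 bases before a transcript's start were at hand for 4 members, in 6 windows. A script searched both strands for CTTTGA, the core of the TCF/LEF site, and for GGNNTTTCC, a form of the NF-kB site; the motifs share no position here. DKK1 starts at chr10:52314281, and the window before it, chr10:52314031-52314280 on the plus strand, holds 2 TCF/LEF cores, shown in capitals, and no match to the NF-kB form.
DKK1: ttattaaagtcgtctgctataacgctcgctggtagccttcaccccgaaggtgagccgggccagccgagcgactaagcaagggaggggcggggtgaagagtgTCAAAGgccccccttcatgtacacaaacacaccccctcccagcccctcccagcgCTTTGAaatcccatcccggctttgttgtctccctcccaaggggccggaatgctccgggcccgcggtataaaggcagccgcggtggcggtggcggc

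Of 35116 such windows, 11.2% hold at least 1 TCF/LEF core and 1.0% hold 2 or more, while 5.5% hold the NF-kB form. One window each of WNT5A and WNT5B holds that form. The other window of each, chr3:55481399-55481648 and chr12:1616806-1617055, holds neither motif. Both matches lie on the strand opposite to the gene, and so read GGAAAGCCC here. These letters, in capitals with 10 bases on either side, are the same in both genes. They lie 59 bases before a transcript's start in WNT5A (chr3:55487347-55487375, minus strand) and 142 bases before one in WNT5B (chr12:1629079-1629107, plus strand). Neither is the outermost annotated start of its gene, and which starts these cells use was not tested. No match was found in the CTNNB1 window. A match describes letters only and is no evidence of binding.
WNT5A: atttggggttGGAAAGCCCtaattaccgc
WNT5B: gccgcctcgtGGAAAGCCCggggcggggg

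The first experiment compared siRelA and siRelB with the same control libraries in MDA-MB-231. DKK1, the secreted antagonist of LRP5 and LRP6, was lower under siRelA and higher under siRelB. The receptor gene FZD7, the co-receptor gene LRP6 and the beta-catenin gene CTNNB1 were higher under siRelA, by 1.29- to 1.35-fold, and the ligand gene WNT5B was lower under siRelB. Here and below a gene is called changed at an adjusted p under 0.05, with p-values adjusted over all genes tested. Under siRelA, 3 of the 9 tested members rose and 1 fell, where 19.0% of the 15930 genes tested were called, 8.82% higher and 10.2% lower. Under siRelB, 1 of 9 rose and 1 fell, where 18.3% were called, 7.45% higher and 10.8% lower. For siRelB the members' share is near that of all genes. In siRelA set against siRelB, 4 of 9 were higher and 1 lower, where 29.9% of genes were called and 16.0% were higher. Both comparisons use the same 2 control libraries, so their results are not independent. Values are CPM, and changes are log2 with the standard error (SE) of the edgeR fit, from 2 libraries a group.

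DKK1 had 113 and 144 CPM under siRelA, 290 and 346 CPM under siRelB, and 214 and 220 CPM in controls. No group overlapped another: siRelA lay lowest and siRelB highest. DKK1 was thus 1.69-fold lower under siRelA, a log2 change of -0.75 ± 0.11 (edgeR adjusted p = 1.1e-04). Under siRelB it was 1.46-fold higher, a change of 0.55 ± 0.11 (edgeR adjusted p = 0.00173). Set directly against siRelB, siRelA libraries gave -1.30 ± 0.11 (edgeR adjusted p = 2.4e-07). All 3 calls held in the 12 alternative settings tried. Exons of DKK1, at chromosome 10, 52314281 to 52318042 of GRCh38, overlap PRKG1-AS1 on the opposite strand; whether the counting used strand is not given in the sources used here, so reads of the pair cannot be told apart.

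The ligands differed from one another. WNT5B (chromosome 12, 1529891 to 1647212 of GRCh38) had 30.8 and 31.3 CPM under siRelA, 22.0 and 24.2 CPM under siRelB, and 33.6 and 35.0 CPM in controls. The siRelB libraries lay below all others, 1.49-fold under the controls (-0.57 ± 0.12, edgeR adjusted p = 0.00375). The change under siRelA was -0.14 ± 0.12 and was not called (edgeR adjusted p = 0.473). siRelA against siRelB gave 0.43 ± 0.12 for WNT5B (edgeR adjusted p = 0.0151), which missed the threshold without the first or second siRelA library or the first siRelB library (edgeR adjusted p = 0.0554, 0.0527 and 0.109). WNT7B (chromosome 22, 45920366 to 45977162), a ligand of the canonical branch, lay within a narrow band: 69.3 and 68.8 CPM under siRelA, 60.4 and 59.8 under siRelB, and 67.1 and 60.6 in controls. It was called in neither comparison with controls. WNT5A (chromosome 3, 55465715 to 55490539) was close to absent, with 19 and 1 counts under siRelA, 0 and 1 under siRelB, and 6 and 0 in controls, and was not tested. Most of its reads came from the first siRelA library, which its replicate did not share.

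The receptor genes were higher under siRelA than in both other groups. FZD7 (chromosome 2, 202033855 to 202038441) encodes a Frizzled receptor of both WNT branches. It had 117 and 111 CPM under siRelA, 76.8 and 68.9 CPM under siRelB, and 83.8 and 92.4 CPM in controls, without overlap between groups. It was 1.29-fold higher under siRelA than in controls (0.37 ± 0.09, edgeR adjusted p = 0.0111). Under siRelB its change of -0.27 ± 0.10 missed the threshold (edgeR adjusted p = 0.0577) and passed it in 5 of 12 alternatives. siRelA exceeded siRelB by 0.65 ± 0.10 (edgeR adjusted p = 8.9e-05). LRP6 (chromosome 12, 12116025 to 12267044), the co-receptor that DKK1 binds, had 60.5 and 59.8 CPM under siRelA, 48.5 and 48.2 CPM under siRelB, and 39.9 and 49.2 CPM in controls. Only the siRelA libraries stood clear of the controls (0.43 ± 0.11, edgeR adjusted p = 0.0119), and the siRelB libraries lay between the 2 controls. The difference between siRelA and siRelB was 0.32 ± 0.11 for LRP6 (edgeR adjusted p = 0.0437) and was lost in 6 of 12 alternatives.

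Inside the cell, CTNNB1 rose under siRelA and AXIN2 was not called. CTNNB1 (chromosome 3, 41194741 to 41260096) encodes beta-catenin, which joins cell adhesion to WNT signalling. It had 550 and 468 CPM under siRelA, 391 and 357 CPM under siRelB, and 379 and 400 CPM in controls. The siRelA libraries lay above all others, 1.31-fold over controls (0.39 ± 0.09, edgeR adjusted p = 0.00517). siRelB and control libraries overlapped (-0.06 ± 0.09, edgeR adjusted p = 0.707), and siRelA exceeded siRelB by 0.44 ± 0.09 (edgeR adjusted p = 0.00114). AXIN2, a scaffold of the destruction complex and a common readout of beta-catenin signalling, had 72 and 80 counts under siRelA, 33 and 36 under siRelB, and 43 and 37 in controls. Its ratio in CPM was 1.88 for siRelA over control, without overlap, but these low counts gave 0.91 ± 0.37 and no call (edgeR adjusted p = 0.103), and none in the 12 alternatives. AXIN2 (chromosome 17, 65528563 to 65561648) shares exons with ENSG00000266076 on the same strand, and how reads of the pair were split is uncertain.

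The 3 rises under siRelA did not hold without each library. Without the first control library FZD7, LRP6 and CTNNB1 changed by 0.29, 0.28 and 0.34 (edgeR adjusted p = 0.173, 0.239 and 0.0798), and without the first siRelA library by 0.31, 0.41 and 0.25 (edgeR adjusted p = 0.0917, 0.055 and 0.0908). DKK1 alone was then called. The 2 other antagonists had few reads. SFRP1 (chromosome 8, 41261962 to 41309473) had 5 and 3 counts under siRelA, 8 and 6 under siRelB, and 15 and 13 in controls. It passed the filter on low counts only through the controls, and was not called under siRelA (-1.81 ± 0.92, edgeR adjusted p = 0.20). DKK3 (chromosome 11, 11956207 to 12009769), whose exons overlap USP47 on the opposite strand, lay between 2.36 and 3.13 CPM in all 6 libraries and was not called. The sum of 6 fibroblast markers was higher with siRelA, with no test. It came to 55.0 to 63.2 CPM under siRelA, 32.4 to 43.4 under siRelB and 31.6 to 34.0 in controls. Nearly all of it was COL1A1 and COL1A2. COL1A1 had 34.2 to 38.5 CPM under siRelA and 18.4 to 19.8 in controls, and COL1A2 had 19.3 to 23.7 and 12.4 to 13.2. COL3A1 had 0 to 0.318 CPM under siRelA and 0.177 to 0.388 in controls. DCN was at 0 in all 3 groups, and PDGFRA was at 0 in siRelB and control libraries. Blood cell markers summed to at most 2.55 CPM, with CD3E at 0. The part of either in these results was not tested. In bulk RNA, fewer cells of a type and less RNA per cell cannot be told apart.

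**Figure D1:**
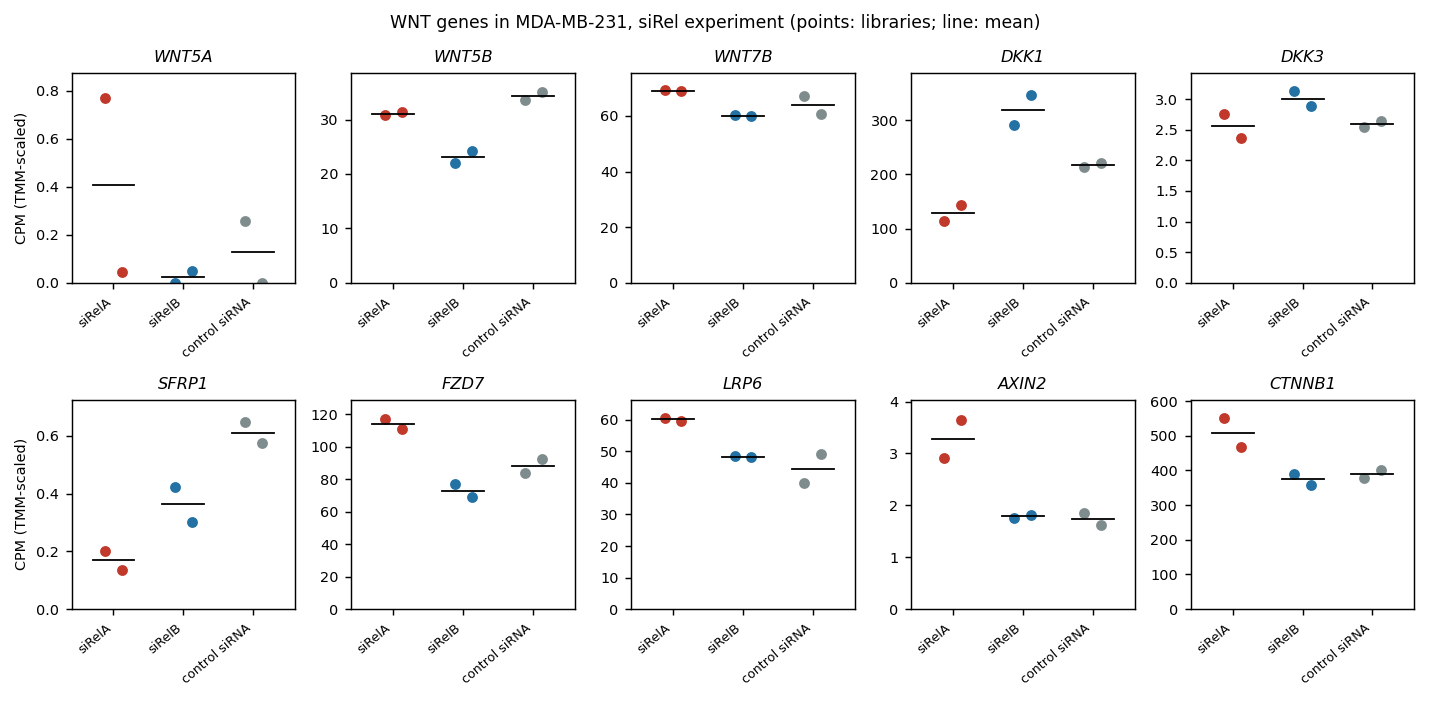
Level of each of the 10 genes in CPM (y axis, from 0, its own scale per gene) in each MDA-MB-231 library of the first experiment, under siRelA, siRelB and control siRNA. Points are the 2 libraries of a group and lines their mean; DKK1 is lowest under siRelA (113 and 144 CPM) and highest under siRelB (290 and 346 CPM), and CTNNB1, FZD7 and LRP6 are highest under siRelA.

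The second experiment compared siEZH2 with control siRNA in each line, to find the transcripts that depend on EZH2. In both lines CTNNB1 rose and DKK1 fell, and WNT5B and WNT7B rose. AXIN2 rose in MDA-MB-231, by 3.71-fold. In SUM149 the ligand gene WNT5A and the antagonist genes SFRP1 and DKK3 rose by 2.57-, 2.19- and 3.67-fold, and FZD7 by 1.40-fold. LRP6 was called in neither line. In MDA-MB-231 4 of the 10 members rose and 1 fell, where 56.6% of the 12356 genes tested were called, 29.4% higher and 27.1% lower. In SUM149 7 rose and 1 fell, where 58.0% were called, 29.4% higher and 28.6% lower. With 56.6% and 58.0% of all genes called, the size of a change says more here than the call, and the 5 calls in MDA-MB-231 are close to the share of all genes.

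Levels of the second experiment are normalised counts recovered from the deposited values. Changes come from limma on the variance-stabilised scale, which is like log2 for high genes and compresses the changes of low ones, and carry the SE of that fit from 2 libraries a group. WNT5A, known for driving motility through the Frizzled and ROR receptors, had 18455 and 18585 normalised counts under siEZH2 in SUM149 and 7436 and 6977 in SUM149 controls. The groups lay far apart, with a change of 1.33 ± 0.06 (limma adjusted p = 1.6e-09). In MDA-MB-231 the gene was barely detected: 5 and 4 recovered reads under siEZH2 and 2 and 3 in controls, with no call (0.05 ± 0.06, limma adjusted p = 0.452).

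WNT5B, the close paralogue of WNT5A, was detected in both lines. Under siEZH2 in SUM149 it had 361 and 363 normalised counts, against 83.4 and 80.8 in controls, a 4.41-fold rise (1.05 ± 0.06, limma adjusted p = 1.8e-08). In MDA-MB-231 WNT5B had 786 and 810 normalised counts under siEZH2 and 564 and 602 in controls, a 1.37-fold rise (0.34 ± 0.06, limma adjusted p = 4.0e-04). In this second experiment WNT7B was low in both lines. It had 133 and 136 normalised counts under siEZH2 in MDA-MB-231 and 90.0 and 97.5 in controls, 1.43-fold higher (0.21 ± 0.06, limma adjusted p = 0.00694). That call was lost with quantile normalization (0.14, limma adjusted p = 0.0581) and without the first MDA-MB-231 control library (0.19, limma adjusted p = 0.0527). In SUM149 WNT7B rested on 18 and 16 recovered reads under siEZH2 and 2 and 6 in controls, a ratio of 3.37 with a 95% counting interval of 1.53 to 8.43 (change 0.23 ± 0.06, limma adjusted p = 0.00408). The interval covers counting error only.

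The antagonist genes did not move together. DKK1 fell in both lines. It had 6838 and 7007 normalised counts under siEZH2 in MDA-MB-231 and 13950 and 13620 in controls, 1.99-fold lower (-0.97 ± 0.06, limma adjusted p = 1.8e-08). In SUM149 DKK1 had 8320 and 7964 normalised counts under siEZH2 and 12952 and 11757 in controls, 1.52-fold lower (-0.58 ± 0.06, limma adjusted p = 2.1e-06). Both falls held in all 17 alternatives. SFRP1, which encodes a secreted decoy that binds WNTs, had 5662 and 5748 normalised counts under siEZH2 in SUM149 and 2631 and 2581 in controls (1.06 ± 0.06, limma adjusted p = 1.3e-08). MDA-MB-231 had only 13 and 14 recovered reads of SFRP1 under siEZH2 and 10 and 14 in controls, which overlapped (0.01 ± 0.06, limma adjusted p = 0.907). DKK3, a member of the Dickkopf family that does not act on LRP6 as DKK1 does, had 92.0 and 123 normalised counts under siEZH2 in SUM149 and 37.3 and 21.3 in controls (0.58 ± 0.07, limma adjusted p = 1.8e-05). In MDA-MB-231 DKK3 had 39.6 and 38.3 normalised counts under siEZH2 and 38.0 and 42.8 in controls, which overlapped. DKK3 passed the filter on low values only through the SUM149 siEZH2 libraries, and its call held with no filter (limma adjusted p = 2.4e-04).

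Of the receptor genes FZD7 was 1.40-fold higher under siEZH2 in SUM149, and LRP6 was called in neither line. FZD7 had 217 and 244 normalised counts under siEZH2 in SUM149 and 146 and 185 in controls, without overlap (0.25 ± 0.07, limma adjusted p = 0.00891). The call was lost with quantile normalization (0.17, limma adjusted p = 0.0702), without the first SUM149 control library (0.17, limma adjusted p = 0.093) and without the second SUM149 siEZH2 library (0.20, limma adjusted p = 0.0775). In MDA-MB-231 FZD7 had 1829 and 1975 normalised counts under siEZH2 and 1701 and 1638 in controls, a change of 0.16 ± 0.07 that missed the threshold (limma adjusted p = 0.0652) and passed it in 3 of 17 alternatives. LRP6 had 2303 and 2170 normalised counts under siEZH2 and 2355 and 2173 in controls of MDA-MB-231, and 2926 and 3255 under siEZH2 and 3238 and 3460 in controls of SUM149. The groups overlapped in both lines, with changes of -0.02 ± 0.06 and -0.11 ± 0.06 (limma adjusted p = 0.859 and 0.161).

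CTNNB1 showed the largest rise of any member in MDA-MB-231 on the fitted scale. It had 18163 and 18975 normalised counts under siEZH2 in that line and 8655 and 8502 in controls, 2.16-fold higher (1.09 ± 0.05, limma adjusted p = 2.5e-09). In SUM149 CTNNB1 had 13464 and 13027 normalised counts under siEZH2 and 7221 and 7273 in controls, 1.83-fold higher (0.85 ± 0.05, limma adjusted p = 3.0e-08). Both rises held in all 17 alternatives. AXIN2 had 144 and 143 normalised counts under siEZH2 in MDA-MB-231 and 42.6 and 34.8 in controls, well apart (0.66 ± 0.06, limma adjusted p = 7.6e-07). It passed the filter only through those siEZH2 libraries, and its call held with no filter (limma adjusted p = 1.6e-05). In SUM149 AXIN2 rested on 15 and 11 recovered reads under siEZH2 and 7 in each control, a ratio of 1.34 with a 95% counting interval of 0.675 to 2.78 and no call (0.06 ± 0.06, limma adjusted p = 0.407).

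Sums of some markers differed with siEZH2, here as values with no test. The 6 fibroblast markers summed to 481 to 492 normalised counts under siEZH2 in MDA-MB-231 and 296 to 307 in controls, and to 4626 to 4868 under siEZH2 in SUM149 and 2207 to 2344 in controls. In MDA-MB-231 the gap lay in COL1A2, at 252 to 259 under siEZH2 and 38.8 to 44.1 in controls, while COL1A1 (162 to 173 under siEZH2 and 183 to 184 in controls) and LUM (45.3 to 52.3 under siEZH2 and 65.4 to 70.4 in controls) were lower. In SUM149 nearly all of the sum was DCN, at 4334 to 4626 under siEZH2 and 2024 to 2201 in controls, while COL1A2, COL3A1, LUM and PDGFRA were at 0 in the controls. The 6 basal epithelial markers summed to 13328 to 13672 normalised counts under siEZH2 in MDA-MB-231 and 14090 to 14476 in controls, and to 9508 to 10170 under siEZH2 in SUM149 and 6794 to 7354 in controls. Within that list EPCAM alone ran against the SUM149 sum, with 166 to 175 under siEZH2 and 1460 to 1594 in controls. KRT8 had 6810 to 7267 under siEZH2 in SUM149 and 3956 to 4380 in controls. In MDA-MB-231 EPCAM had 518 to 556 under siEZH2 and 1297 to 1410 in controls. KRT8, most of that sum, had 12796 to 13097 under siEZH2 and 12749 to 13028 in controls. The 4 mesenchymal markers, mostly VIM, summed to 54362 to 54645 under siEZH2 in MDA-MB-231 and 34854 to 36561 in controls. In SUM149 they summed to 91037 to 93181 under siEZH2 and 68476 to 71413 in controls. CDH2 alone ran against the MDA-MB-231 sum, with 60.2 to 71.9 under siEZH2 and 120 to 128 in controls. Blood cell markers summed to 38.0 to 51.6 under siEZH2 and 9.41 to 15.1 in controls of MDA-MB-231, and to 98.2 to 118 under siEZH2 and 22.7 to 39.3 in controls of SUM149, with CD3E at 0 in all 4 groups. Their part in the members' changes was not tested.

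**Figure D2:**
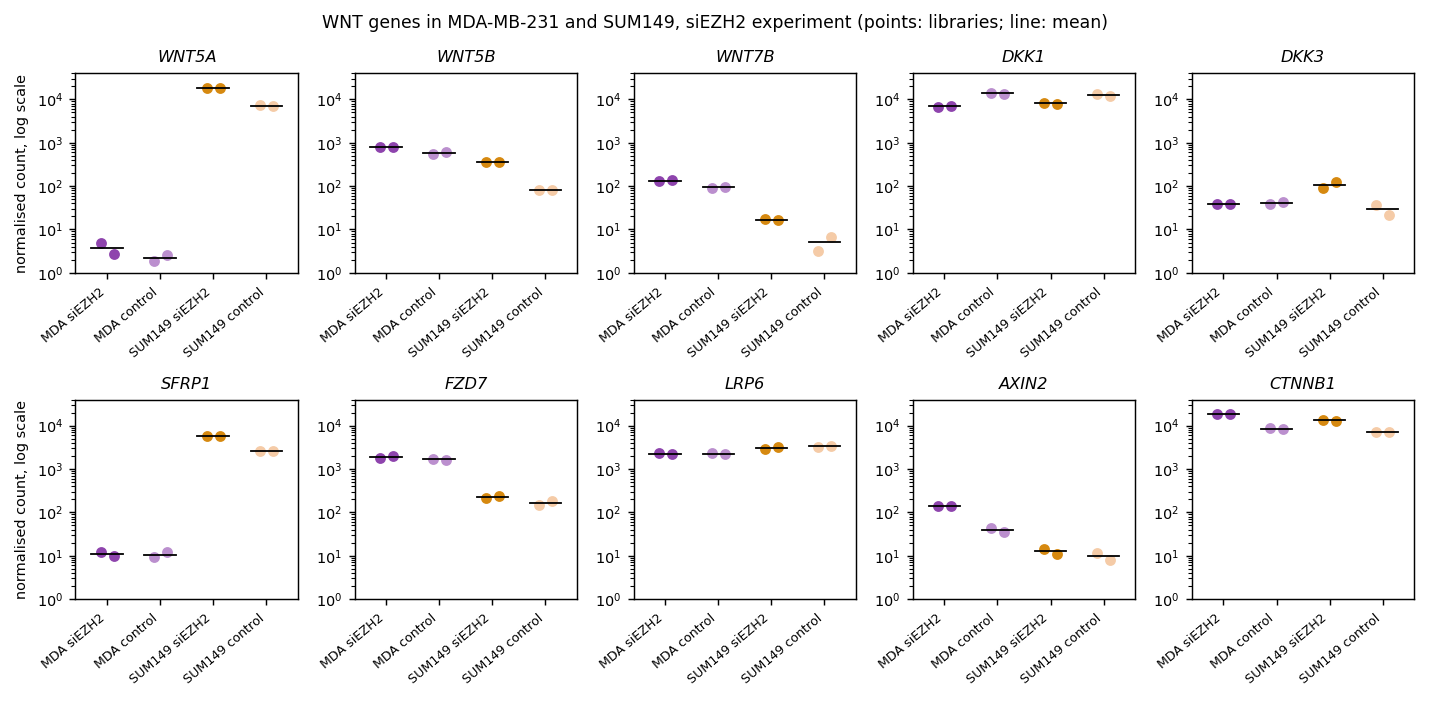
Recovered normalised count of each of the 10 genes (y axis, log scale) under siEZH2 and control siRNA in MDA-MB-231 (marked MDA) and SUM149. Points are the 2 libraries of a group and lines their mean; CTNNB1 is higher and DKK1 lower under siEZH2 in both lines, WNT5A and SFRP1 are high only in SUM149, and AXIN2 is highest under siEZH2 in MDA-MB-231 (144 and 143).

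The siEZH2 effects were set against each other, as the effect in SUM149 minus that in MDA-MB-231. EZH2 itself fell less in SUM149, with a difference of 0.51 ± 0.10 (limma adjusted p = 0.00346). The part of this weaker fall in the members' differences was not tested. Among the 10 members 5 of these differences were positive and 2 negative, where 21.5% of genes were called, 11.2% positive and 10.4% negative. WNT5B (0.71 ± 0.09, limma adjusted p = 9.1e-05) rose in both lines and more in SUM149. DKK3 (0.59 ± 0.10, limma adjusted p = 0.00131) and SFRP1 (1.05 ± 0.08, limma adjusted p = 3.3e-06) rose in SUM149 and were not called in MDA-MB-231. The fall of DKK1 was smaller in SUM149 (0.38 ± 0.08, limma adjusted p = 0.00508). These 4 differences were called also by edgeR on the recovered reads. The differences for WNT5A (1.28 ± 0.08, limma adjusted p = 5.9e-07), AXIN2 (-0.60 ± 0.08, limma adjusted p = 2.4e-04) and CTNNB1 (-0.24 ± 0.07, limma adjusted p = 0.0326) were not. There they were 0.71 ± 0.72, -1.40 ± 0.53 and -0.21 ± 0.08 (edgeR adjusted p = 0.641, 0.0919 and 0.112). WNT5A had 9 recovered reads under siEZH2 and 5 in controls over all MDA-MB-231 libraries. The CTNNB1 difference was lost in 9 of 16 alternatives, among them 7 of the 8 that leave out a library, with adjusted p up to 0.108 in these limma fits.

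**Figure D3:**
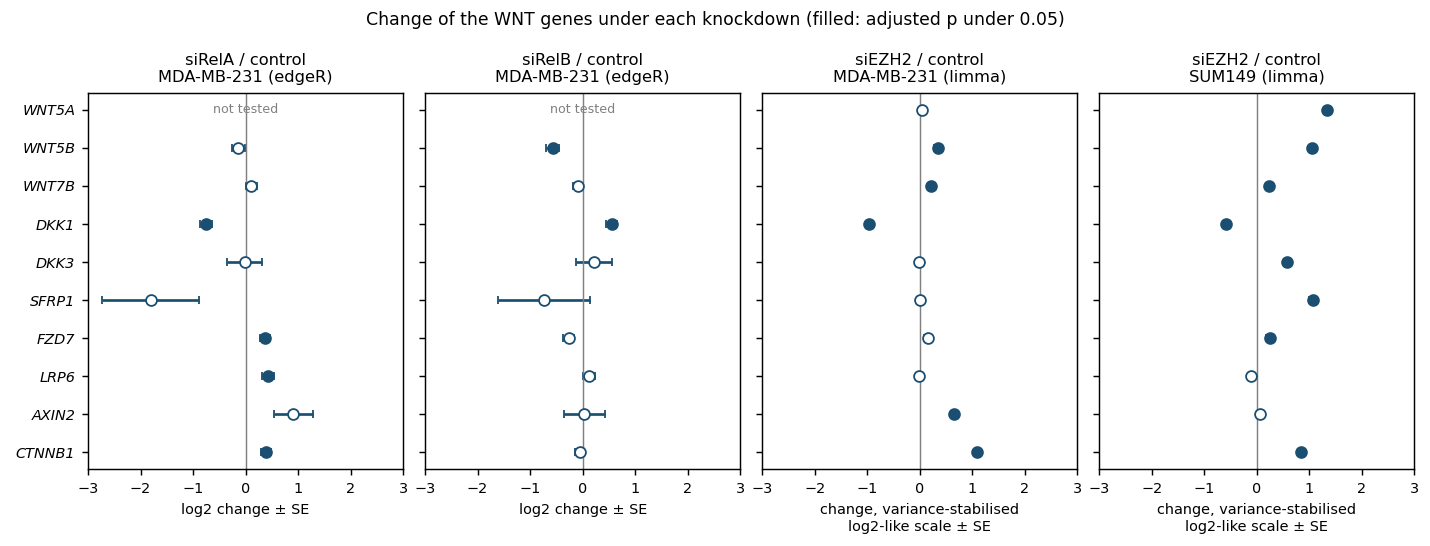
Change of each gene (x axis, with its SE as a bar) under siRelA and siRelB in MDA-MB-231 on the log2 scale of edgeR, and under siEZH2 in each line on the variance-stabilised scale of limma. Filled points are called at adjusted p under 0.05; DKK1 lies left of 0 under siRelA (-0.75) and siEZH2 (-0.97 and -0.58) and right of it under siRelB (0.55), and CTNNB1 lies right of 0 under siRelA (0.39) and siEZH2 (1.09 and 0.85).

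Control libraries of the lines differed in most members, as in most genes. SUM149 was higher than MDA-MB-231 in 3 of 10 members and lower in 6, where 82.8% of all genes were called, 41.3% higher and 41.5% lower. The members' share called is thus near that of all genes. Line and cell culture cannot be told apart here. WNT5A marked the widest gap, with 4546 and 6199 recovered reads in SUM149 controls and 2 and 3 in MDA-MB-231 controls. After normalisation that is a ratio of 3255 with a 95% counting interval of 1394 to 10027 (5.57 ± 0.06, limma adjusted p = 6.9e-17). SFRP1 followed with 1608 and 2293 recovered reads in SUM149 and 10 and 14 in MDA-MB-231, a ratio of 244 with an interval of 164 to 381 (3.97 ± 0.06, limma adjusted p = 1.3e-15). LRP6 was 1.48-fold higher in SUM149 controls (0.52 ± 0.06, limma adjusted p = 3.9e-06).

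WNT5A and SFRP1 passed the filter on low values only through the SUM149 libraries, where they were high, WNT7B only through the MDA-MB-231 libraries, and AXIN2 only through those under siEZH2. With no filter the differences between the control lines were still called for WNT5A (limma adjusted p = 1.4e-12), SFRP1 (limma adjusted p = 5.1e-12), WNT7B (limma adjusted p = 2.8e-07) and AXIN2 (limma adjusted p = 2.1e-04).

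FZD7 was 10.1-fold lower in SUM149 controls (-2.30 ± 0.07, limma adjusted p = 1.7e-12) and WNT5B 7.10-fold lower (-1.51 ± 0.06, limma adjusted p = 2.9e-11). WNT7B, with 8 recovered reads in SUM149, was 18.7-fold lower (-0.88 ± 0.06, limma adjusted p = 5.3e-09), and AXIN2, with 14, was 4.00-fold lower (-0.37 ± 0.06, limma adjusted p = 4.3e-05). CTNNB1 differed by -0.24 ± 0.05 (limma adjusted p = 9.1e-04). The DKK1 difference of -0.16 ± 0.06 (limma adjusted p = 0.0231) was lost in 5 of 16 alternatives, 3 of them without the first or second MDA-MB-231 control or the second SUM149 control (limma adjusted p = 0.109, 0.0535 and 0.257). DKK3 was not called (-0.12 ± 0.07, limma adjusted p = 0.15), except without the first SUM149 control (-0.21, limma adjusted p = 0.0249). Ranked over the 4 groups by normalised count, DKK1 was highest in MDA-MB-231 and SUM149 controls, then in SUM149 under siEZH2, then in MDA-MB-231 under siEZH2, and CTNNB1 ran in the order MDA-MB-231 siEZH2, SUM149 siEZH2, MDA-MB-231 control, SUM149 control. Within each of these orders the libraries of neighbouring groups did not overlap.

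Other genes of the pathway were read from 9 lists written from textbook knowledge, with 112 genes of which 110 were found and 102 are not members. Under siRelA 8 of 65 tested rose and 9 fell, with a median log2 change of 0.11 beside 0.02 over all genes. Under siRelB 3 rose and 12 fell, with a median of -0.04 beside 0.01. Under siEZH2 17 of 57 rose and 11 fell in MDA-MB-231, with a median of -0.00 beside 0.00, and 20 rose and 10 fell in SUM149, with a median of 0.08 beside -0.00. These shares, and those of the single lists below, are read against the 19.0%, 18.3%, 56.6% and 58.0% called over all genes in either direction.

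The receptor and co-receptor list held 11 to 12 tested genes: 3 of 11 rose and 2 fell under siRelA, 1 rose and 3 fell under siRelB, and under siEZH2 5 of 12 rose and 1 fell in MDA-MB-231 and 7 rose and 2 fell in SUM149. LRP5, the paralogue of LRP6, had 357 and 296 CPM under siRelA and 174 and 178 CPM in controls (0.89 ± 0.09, edgeR adjusted p = 3.2e-06). FZD1 fell under siRelA to 41.1 and 41.4 CPM, against 69.1 in each control (-0.74 ± 0.10, edgeR adjusted p = 4.8e-05). Under siEZH2 FZD1 instead rose, by 0.80 ± 0.07 (limma adjusted p = 3.2e-07) in MDA-MB-231 and 0.73 ± 0.07 (limma adjusted p = 8.2e-07) in SUM149. FZD8 had 4.40 and 5.80 CPM under siRelB and 12.9 and 9.22 in controls (-1.12 ± 0.23, edgeR adjusted p = 0.00227). The WNT5A receptors of the ROR family were split by line: ROR2 had 521 and 587 normalised counts in SUM149 controls and 0.799 and 0 in MDA-MB-231 controls, while ROR1 had 33.3 and 41.7 in SUM149 controls and 2259 and 2116 in MDA-MB-231 controls (limma changes 2.48 ± 0.07 and -3.40 ± 0.07, adjusted p = 6.1e-13 and 3.6e-14).

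Among ligands WNT9A fell under siRelB, to 25.4 and 25.7 CPM against 43.3 and 46.3 CPM in controls (-0.81 ± 0.11, edgeR adjusted p = 7.4e-05), and it was the only one of 5 tested ligands outside the members that was called there; 0 of 5 were called under siRelA. Of the R-spondin arm, which tunes receptor turnover, the R-spondin receptor LGR4 rose under siRelA (0.89 ± 0.11, edgeR adjusted p = 2.0e-05), and the ubiquitin ligase RNF43, which removes Frizzleds, fell under siEZH2 in SUM149 (-0.54 ± 0.06, limma adjusted p = 6.7e-06) and in MDA-MB-231 (-0.35 ± 0.06, limma adjusted p = 2.9e-04). KREMEN1, a DKK1 receptor, rose under siRelA (0.92 ± 0.21, edgeR adjusted p = 0.00574) and with siEZH2 in both lines (MDA-MB-231 0.53 ± 0.07, limma adjusted p = 4.4e-05; SUM149 0.97 ± 0.07, limma adjusted p = 2.1e-07).

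Of the listed target genes 0 of 9 rose and 2 fell under siRelA, and 0 rose and 1 fell under siRelB. Under siEZH2 1 of 7 rose and 4 fell in MDA-MB-231, and 2 rose and 3 fell in SUM149. Over all genes 8.82%, 7.45%, 29.4% and 29.4% were called higher in these comparisons, in that order. Called lower were 10.2%, 10.8%, 27.1% and 28.6%. For siRelA the share of these targets called is near the 19.0% of all genes. CCND1, which encodes cyclin D1, had 6387 and 6258 normalised counts under siEZH2 in MDA-MB-231 and 14005 and 13644 in controls (-1.10 ± 0.05, limma adjusted p = 1.5e-09). CCND1 was also called lower under siRelA (-0.34 ± 0.08, edgeR adjusted p = 0.00502) and siRelB (-0.29 ± 0.08, edgeR adjusted p = 0.0126). MYC fell under siRelA (-0.46 ± 0.09, edgeR adjusted p = 0.00227) and, with siEZH2, by limma in SUM149 (-0.51 ± 0.06, adjusted p = 5.6e-06) and in MDA-MB-231 (-0.70 ± 0.06, adjusted p = 2.9e-07). Both genes are also controlled by many other pathways. TNFRSF19, a receptor of the tumour necrosis factor family, rose in SUM149, with 285 and 320 normalised counts under siEZH2 and 105 and 128 in controls (0.69 ± 0.07, limma adjusted p = 3.3e-06). Within the destruction complex list TNKS2, which marks AXIN proteins for degradation, rose by 1.05 ± 0.07 (limma adjusted p = 2.5e-08) with siEZH2 in MDA-MB-231 and by 0.86 ± 0.07 (limma adjusted p = 1.8e-07) in SUM149, and AMER1, which binds APC, changed by -0.73 ± 0.07 and -0.56 ± 0.07 (limma adjusted p = 8.3e-07 and 9.9e-06).

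The planar polarity arm, through which WNT5A can act on cell shape, had 4 of 9 genes higher and 0 lower under siEZH2 in MDA-MB-231, and 5 higher and 0 lower in SUM149. Called in either direction, these shares are below the 56.6% and 58.0% of all genes. The shares called higher are above the 29.4% of all genes called higher in each line, a difference that was not tested. Of its 10 genes tested in the first experiment 2 rose and 1 fell under siRelA, and 2 rose and 2 fell under siRelB. DAAM1, a formin that links Dishevelled to actin, rose by 0.62 ± 0.06 in MDA-MB-231 and 0.50 ± 0.06 in SUM149 (limma adjusted p = 1.0e-06 and 7.5e-06). VANGL1, a core polarity membrane protein, rose by 0.54 ± 0.05 in each line (limma adjusted p = 2.0e-06 and 2.3e-06). VANGL1 had the largest called fall of these lists under siRelB, with 42.1 and 32.2 CPM against 115 and 122 CPM in controls (-1.68 ± 0.12, edgeR adjusted p = 1.1e-07).

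**Figure D4:**
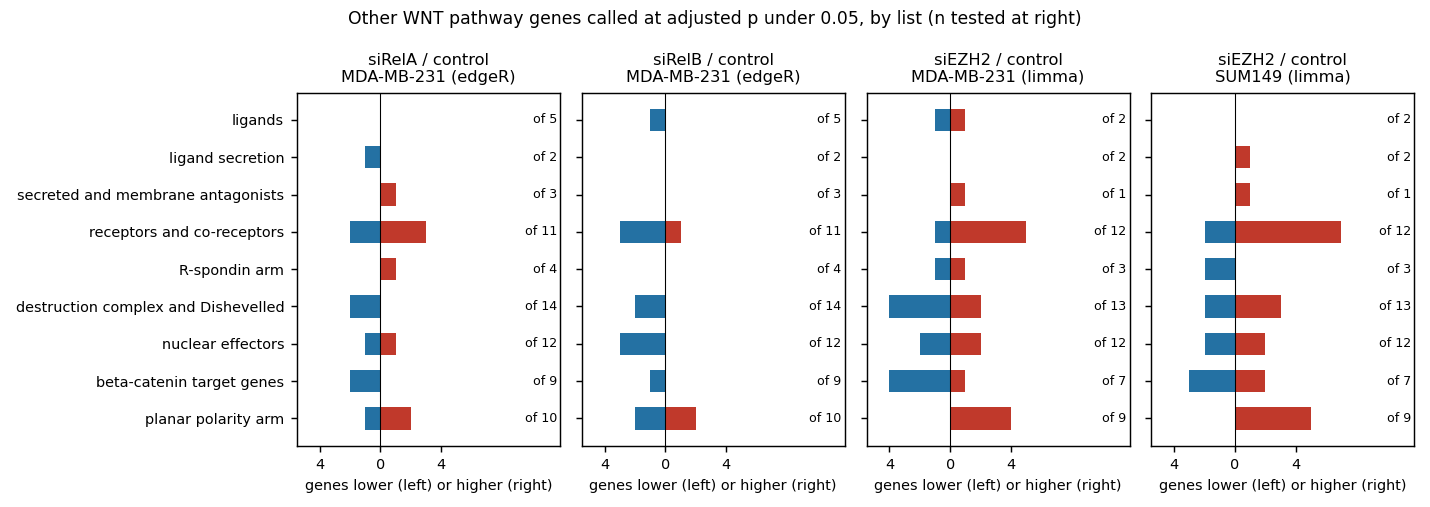
Number of other WNT pathway genes called higher (right of 0) or lower (left of 0) at adjusted p under 0.05 under each knockdown, by list, with the number tested at the right of each row. Receptors and co-receptors reach 7 higher and 2 lower of 12 under siEZH2 in SUM149, and the planar polarity arm has 4 and 5 of 9 higher and 0 lower under siEZH2.

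Genes of like pattern were taken as the 3 with the highest Pearson correlation to each member over the 14 libraries, among 10850 genes tested in both experiments, with values centred within the first experiment and within each line of the second. The libraries of a group share their treatment, so few independent points stand behind each value, and no p is given. DKK1 was closest to AEN (r = 0.995), ZCCHC3 (0.984) and NOL6 (0.975), and CTNNB1 to XYLT2 (0.991), CDC42EP4 (0.984) and GSTCD (0.983). WNT5B was closest to CAV1 (0.988), ENPP1 (0.982) and SNAI2 (0.974). For the other members the nearest gene was ACADS for FZD7 (0.98), RHNO1 for WNT7B (0.971), SELPLG for AXIN2 (0.971), MYO7B for SFRP1 (0.956), ZSCAN31 for LRP6 (0.942) and MBOAT2 for DKK3 (0.936). WNT5A was not tested in the first experiment and has no such value.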

How the data were processed

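RNA was measured in 14 libraries of 7 groups, taken from the labels. The authors deposited raw counts per Ensembl gene for the first experiment and variance-stabilised, log2-like values per gene symbol for the second. Per the submitters' processing notes, the tools were cutadapt, STAR 2.5.2b, Salmon, HISAT2 2.0.5, featureCounts 1.5.0-p3 and DESeq2 1.20.0 and the build hg19. The sources used here do not give their roles, the strand setting or the annotation. Printed positions are those of GENCODE v44 (GRCh38), with no conversion between builds.

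Counts of all 6 libraries were fitted with edgeR 4.0.16 (quasi-likelihood, TMM, default filter, group term; 15930 genes, biological coefficient of variation 10.1%, 3 residual degrees of freedom). The variance-stabilised values of 8 libraries were fitted with limma 3.58.1 (trend; 12356 genes at least 1 above the lowest value, 7.12, in 2 libraries; 4 residual degrees of freedom). P-values were adjusted by Benjamini-Hochberg over all genes tested. Normalised counts were recovered by inverting the transformation. Between 87.9% and 91.2% of low values then lay within 0.1 of a whole number of reads, so recovered reads are approximate. DESeq2 1.42.0 and edgeR on recovered reads, the last chosen after seeing the data, were alternatives. Both fits were tested on simulated data. R was 4.3.3, Python 3.11.15 and pandas 2.3.3.

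Members and lists were chosen with earlier results of these data known. The text names all members and the targeted genes. Other names come from the list genes among the 3 largest called changes of a list and comparison, and from the 3 genes most like each member tested in both experiments; not all of these are printed. Replicates are biological by their labels, which do not say whether cultures were separate, so p-values measure the spread between these samples.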

Additional observations from a re-analysis of the deposited data

Results flagged for a closer look

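The siEZH2 effect differed between SUM149 and MDA-MB-231 for 7 of the 10 members by limma's interaction term, where 21.5% of the 12356 genes tested were called. Each difference is given as the effect in SUM149 minus that in MDA-MB-231 on the variance-stabilised scale. It was 1.28 for WNT5A, 1.05 for SFRP1, 0.71 for WNT5B, 0.59 for DKK3 and 0.38 for DKK1. It was -0.60 for AXIN2 and -0.24 for CTNNB1. Of these, WNT5A, AXIN2 and CTNNB1 were not called by edgeR on the recovered reads, and the CTNNB1 difference was not called in 9 of 16 alternatives. WNT5A had 5 and 4 recovered reads under siEZH2 and 2 and 3 in controls of MDA-MB-231, and AXIN2 had 15 and 11 under siEZH2 and 7 in each control of SUM149. No cause of these differences was tested.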

How the results depend on the processing

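Of 950 values of single members under alternative settings, 891 kept their direction and their side of the threshold, 36 no longer passed it, 9 newly passed it and 14 changed sign; none of those 14 was called. Leaving out 1 library at a time, genes called ranged from 1624 to 3287 for siRelA, from 1520 to 3362 for siRelB and from 1611 to 2532 for the difference between lines. With all libraries they were 3031, 2913 and 2662, and were over 1.5 times lower without the first (1624) or second (1786) control for siRelA, the first (1754) or second (1520) for siRelB, and the first (1611) or second (1683) MDA-MB-231 control or the second SUM149 siEZH2 library (1772) for the difference. Members called ranged from 1 to 4 for siRelA and from 3 to 5 for siRelA against siRelB. Under the same omissions DKK3 (-0.15 to 0.08) changed sign for siRelA, LRP6 (-0.03 to 0.27) and AXIN2 (-0.06 to 0.12) for siRelB, DKK3 (-0.04 to 0.01), SFRP1 (-0.01 to 0.03) and LRP6 (-0.07 to 0.04) for siEZH2 in MDA-MB-231, and WNT7B (-0.03 to 0.07) for the difference between lines. With quantile normalization AXIN2 in SUM149 was -0.00 and DKK3 between control lines 0.04. A filter at 2 above the lowest value left 3 members called for siEZH2 in MDA-MB-231, since fewer members were tested. On recovered reads, an alternative chosen after seeing the data, 4 members were called for the difference between lines, and 64.8% of all its called genes were positive, against 51.9% with limma; the cause was not tested.

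Same-numbered libraries did not deviate together in the siRNA and control pairs (correlations of -0.054, -0.044, 0.088 and -0.117; 0.093 for siRelA and siRelB), so the numbers were not taken as a pairing. A fit with the replicate block called 2958, 2828 and 4680 genes for siRelA, siRelB and siRelA against siRelB, against 3031, 2913 and 4768 without it. For siEZH2 in MDA-MB-231 and SUM149, the difference and the control lines it called 6937, 7132, 2571 and 9729, against 6990, 7163, 2662 and 10236. With it CTNNB1 for the difference (-0.24, limma adjusted p = 0.0688) and DKK1 between control lines (-0.11, limma adjusted p = 0.207) were not called, and it changed no other member's call. The numbers crossed, added after seeing the data, gave 7073, 7278, 2677 and 9829 genes called. The 2 replicates a group and few reads for WNT5A, SFRP1, WNT7B and AXIN2 in one line each limit what could be detected. For WNT7B the difference between lines in the siEZH2 effect was 0.02 ± 0.08 by limma (adjusted p = 0.908). By edgeR on recovered reads it was 1.16 ± 0.52 (adjusted p = 0.157), also not called.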

Other observations

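WNT7B differed in level between the control siRNA libraries of the experiments in MDA-MB-231. MDA-MB-231 control libraries held 1557 and 1374 counts of WNT7B among 24.0 and 23.2 M in the first experiment, and 95 and 115 recovered reads among 27.9 and 31.0 M in the second. The labels do not say whether the control siRNAs were the same, and the experiments were processed separately, so this difference was not tested.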
